A study of Mus musculus with 9 samples.

Results

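A set of 36 mouse genes for glycolysis, for the handling of lactate and for the response to low oxygen was followed through the reprogramming of fibroblasts. The members were taken by gene symbol, for their known function, and were chosen with earlier results of these data known. Of the 36, 35 had a row in the deposited table of 12550 genes, and Car9, a carbonic anhydrase gene, had none and is not analysed here. All 35 passed the filter on low values, a mean signal of at least 20 over the libraries, and were tested among 12541 genes.

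The cells were mouse embryonic fibroblasts of strain C57Bl/6cJ, transfected with plasmids for Oct4, Sox2, Klf4 and c-Myc, which turn such cells into induced pluripotent stem cells, and grown in stem cell medium with serum, sodium pyruvate and LIF. They carried a short hairpin RNA from a pretroSuper vector, against Hnrnpk (an RNA-binding protein), against lincRNA-p21 (a p53-induced long non-coding RNA, gene Trp53cor1) or against luciferase, a control target that mouse cells lack. RNA of each of the 3 arms was sequenced on days 6, 9 and 12, as 1 library per arm and day and 9 libraries in all, each labelled as merged replicates, so that what is given below as a signal is a value in 1 such library. Each target had 1 hairpin arm, so effects of a hairpin on other genes and effects of losing its target cannot be told apart, and no oxygen level is stated in the labels.

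Glycolysis splits glucose into pyruvate in the cytosol. Cells then either pass pyruvate to the mitochondria or turn it into lactate and export it, and pluripotent stem cells are known for relying more on glycolysis than fibroblasts do. When oxygen is short, the transcription factor HIF-1, whose regulated subunit is the Hif1a product, escapes destruction that starts with prolyl hydroxylases (the Egln products) and raises the transcription of most genes of glycolysis, of lactate export and of its own hydroxylases.

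In the Hnrnpk arm the signal of Hnrnpk was 11349 to 17016, against 23376 to 31243 in the luciferase arm, and in the lincRNA-p21 arm that of Trp53cor1 was 90.5 to 122, against 237 to 286.5 in the luciferase arm. Trp53cor1 was low in the Hnrnpk arm too, at 131, 137 and 119.5, so lincRNA-p21 was below its luciferase level in both knockdown arms. The authors' scaling gave the 9 columns totals within 0.0252% of each other and the same highest value, 118715, and the number of reads behind them is unknown. The libraries held fibroblast markers (10 of 10 in the table, summed signal of 112627.5 to 248471.5) and, to a rising extent over the days, epithelial and pluripotent markers, with Dppa4, Lin28a and Dnmt3l at 0 in 1 day 6 library each. Markers of macrophages, endothelium and adipocytes were represented by 1 gene each and those of muscle by 3, and none of the 4 erythroid markers was in the table. Of these 6 genes, 2 muscle markers were higher and 1 lower in the Hnrnpk than in the luciferase arm. Of all tested genes 5.58% were called higher in that comparison and 6.94% lower (limma, adjusted p under 0.05).

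Most members rose with time. From day 6 to day 9, over all arms, 24 of 35 members rose and 1 fell, where 18.9% of all tested genes were called higher and 21% lower (limma on log2 of the signal plus 10, with terms for arm and day, Benjamini-Hochberg adjusted p under 0.05). The median difference of the members was 0.72 on the log2 scale, against -0.01 over all genes tested. From day 9 to day 12 only 2 members passed the test, both higher (0.526% of all genes were called higher), while 14 members and 1769 of all 12541 genes had an unadjusted p under 0.05 and the members' median difference was 0.35, against -0.03 over all genes. From day 6 to day 12, 28 rose and 1 fell (22.3% of all genes were called higher and 27% lower), with a median difference of 0.996 against -0.0401 over all genes. In libraries of mixed cells, more cells of a type and more RNA per cell cannot be told apart.

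**Figure D1:**
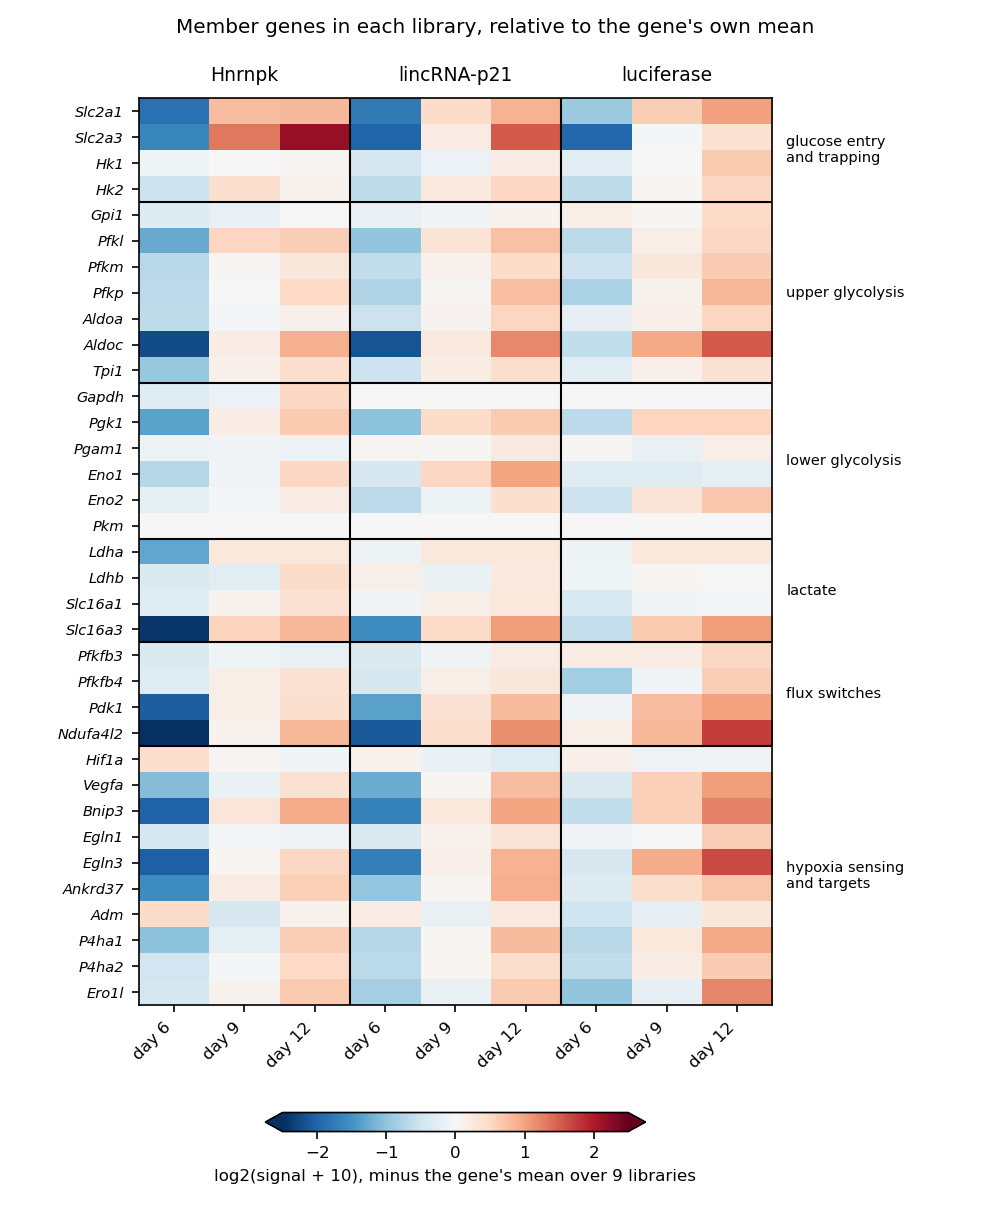
Each row is 1 of the 35 members, grouped by role, and each column 1 library of the Hnrnpk, lincRNA-p21 or luciferase arm on day 6, 9 or 12; the color is log2 of the signal plus 10, minus the mean of that gene over the 9 libraries. Most rows change from blue on day 6 to red on day 12 in each arm. The darkest blue lies in the Hnrnpk column of day 6. That library held the lowest value of 20 of the 35 members, against 15.9% of all tested genes.

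The rise was seen in each arm. The signal was higher at each later day for 27 of 35 members in the Hnrnpk arm, for 28 in the lincRNA-p21 arm and for 25 in the luciferase arm, against 24.6%, 27% and 26.5% of all tested genes. In every arm at once 22 of 35 members did so, against 9.85% of all tested genes. Epithelial and pluripotent markers rose with the days as well. Of the epithelial markers 6 of 6 rose from day 6 to day 9 and of the pluripotent markers 8 of 10, against 18.9% of all tested genes. Of the fibroblast markers 3 of 10 fell in that step, near the 21% of all tested genes called lower. From day 6 to day 12, 5 of 10 fibroblast markers fell, against 27% of all tested genes. The summed signal of the pluripotent markers was 433.5 to 619.5 on day 6, 1258 to 5225.5 on day 9 and 1387.5 to 10553 on day 12. That of the epithelial markers was 2033.5 to 3811.5, 8087 to 17031.5 and 13992 to 32094, and that of the fibroblast markers 173434 to 248471.5, 112627.5 to 196604.5 and 147467.5 to 178589.5. Col1a2 is the largest part of each fibroblast sum and stood at the highest value of the table, 118715, in 7 of the 9 libraries. These sums therefore say little of the other fibroblast markers. The part of these cell types in the members' rise was not tested.

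Of the 4 genes for glucose entry and trapping, 3 rose from day 6 to day 9. Slc2a1, the glucose transporter GLUT1 that most cells carry, had a signal of 3613, 22599 and 23190 on days 6, 9 and 12 in the Hnrnpk arm, 3873.5, 18189.5 and 24177 in the lincRNA-p21 arm, and 6889.5, 20248 and 26891 in the luciferase arm. All 3 libraries of day 6 lay below all of day 9, a difference of 2.14 on the log2 scale (SE 0.19, limma adjusted p = 0.000174). Slc2a3, the high-affinity transporter GLUT3, stood at 1746, 13512.5 and 24461 in the Hnrnpk arm, 1335, 6221 and 15645 in the lincRNA-p21 arm, and 1377, 5327 and 7068.5 in the luciferase arm, and rose by 2.37 from day 6 to day 9 (SE 0.25, limma adjusted p = 0.000364). The day 6 values of Slc2a3 lay close together and the arms spread apart later. Of the hexokinases, which trap glucose as glucose 6-phosphate, Hk2 rose by 0.83 from day 6 to day 9, and Hk1 did not pass the test in that step (0.21) and rose by 0.56 from day 6 to day 12.

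In upper glycolysis, where the sugar is phosphorylated again and then cut, 6 of 7 members rose from day 6 to day 9. The 3 phosphofructokinase genes, for the committed step, rose by 1.31 (Pfkl), 0.75 (Pfkm) and 0.77 (Pfkp). Pfkp was the 1 upper member that also passed from day 9 to day 12 (0.65, SE 0.11, limma adjusted p = 0.0474), at 2732.5, 4351 and 6122 in the Hnrnpk arm, 2582, 4408 and 7284 in the lincRNA-p21 arm, and 2481, 4590 and 7704.5 in the luciferase arm. That call was kept without the luciferase or the Hnrnpk library of day 6 and lost without any other library, and with 1 added in place of 10. Aldolase C (Aldoc), an isozyme known from brain, had 336, 1853.5 and 3027 in the Hnrnpk arm, 357.5, 1934.5 and 3738 in the lincRNA-p21 arm, and 1054.5, 3128.5 and 4747.5 in the luciferase arm. The day 6 libraries of Aldoc all lay below those of day 9, and the luciferase library was the highest on each day. Its difference from day 6 to day 9 was 2.13 (SE 0.21), against 0.52 (SE 0.13) for Aldoa, the aldolase of most tissues, and 0.72 (SE 0.15) for Tpi1, triose phosphate isomerase. Gpi1, glucose 6-phosphate isomerase, did not pass from day 6 to day 9 (0.05, SE 0.12) or from day 6 to day 12 (0.30, adjusted p = 0.0603).

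Lower glycolysis, which yields ATP and pyruvate, had 2 of 6 members called from day 6 to day 9. Pgk1, phosphoglycerate kinase, rose by 1.42 (SE 0.16), and Eno2, the neuronal enolase, by 0.53 (SE 0.15). Eno1, the common enolase, stood at 36470.5, 56816.5 and 85013 in the Hnrnpk arm, 44890, 85013 and 118715 in the lincRNA-p21 arm, and 48100.5, 48100.5 and 51311 in the luciferase arm. The value of 118715 is the highest of the table, so a higher level could not show, and the differences of Eno1 that use this library rest on it. In the Hnrnpk and lincRNA-p21 arms the day 12 library was the highest. In the luciferase arm Eno1 hardly changed on the deposited scale, which gave the same value on days 6 and 9. It was not called from day 6 to day 9 (0.52) and rose by 0.91 from day 6 to day 12 (limma adjusted p = 0.0132), a call lost without the Hnrnpk library of day 12 or the lincRNA-p21 library of day 6 or day 12. Pgam1, phosphoglycerate mutase, had 11750, 12263 and 11527 in the Hnrnpk arm, 13362.5, 13046 and 14901 in the lincRNA-p21 arm, and 13024.5, 11236 and 14365 in the luciferase arm, with overlapping days and no call between them.

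Some members with a high signal sat where the deposited scale is coarse. Pkm, pyruvate kinase M, had the highest value of the table, 118715, in all 9 libraries, so no change in it could be seen. Gapdh, glyceraldehyde phosphate dehydrogenase, was at 51276, 56778.5 and 90498 in the Hnrnpk arm and at 62281 in each of the lincRNA-p21 and luciferase libraries. Ldha, the lactate dehydrogenase subunit that favours lactate, was at 21342, 62250 and 62250 in the Hnrnpk arm and at 48014, 62250 and 62250 in both the lincRNA-p21 and the luciferase arm. These 3 members had 4 or fewer distinct values over the 9 libraries, as had 16 of the 12550 genes (0.127%), and differences smaller than such a step are not detectable. Eno1 and Pgk1, with 7 distinct values each, and Tpi1, with 8, also repeated values between libraries. Near-identical processed copies of Gapdh, Pgk1, Ldha and Eno1 exist in the mouse genome, and no label says how reads shared with them were assigned.

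Of the 4 lactate genes, 3 rose from day 6 to day 9. Slc16a3, the lactate exporter MCT4 of glycolytic cells, had 806, 6487 and 7916.5 in the Hnrnpk arm, 1474.5, 6133.5 and 9125 in the lincRNA-p21 arm, and 2937.5, 6968.5 and 9154 in the luciferase arm, and rose by 2.10 from day 6 to day 9 (SE 0.29, limma adjusted p = 0.00105). Slc16a1, the transporter MCT1, rose by 0.31 (SE 0.10, limma adjusted p = 0.0425), and Ldha by 0.76 (SE 0.25, limma adjusted p = 0.0395). Ldhb, the subunit that favours pyruvate, had 1375, 1455 and 2449 in the Hnrnpk arm, 1958.5, 1565 and 2105.5 in the lincRNA-p21 arm, and 1638, 1840.5 and 1769 in the luciferase arm, with no common direction from day 6 to day 9 (-0.02, SE 0.17). Ldha lost its call for this step without the Hnrnpk library of day 6, any library of day 9 or the lincRNA-p21 library of day 12. Slc16a1 lost it without these and without the lincRNA-p21 library of day 6.

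Among the switches of pyruvate and sugar flux, Pdk1 rose by 1.59 from day 6 to day 9 and Ndufa4l2 by 2.17. Pdk1 is the kinase that shuts pyruvate dehydrogenase and so keeps pyruvate out of the mitochondria, and Ndufa4l2 is a hypoxia-induced mitochondrial protein that lowers respiratory activity. Pfkfb4, which makes and breaks fructose 2,6-bisphosphate, a strong activator of phosphofructokinase, rose by 0.60. Pfkfb3, its relative with the strongest kinase activity, did not pass from day 6 to day 9 (0.16) and rose by 0.34 from day 6 to day 12 (limma adjusted p = 0.0373), a call lost without any lincRNA-p21 library, the Hnrnpk library of day 6 or the luciferase library of day 12.

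Hif1a itself fell with time, while most other members among the hypoxia sensing genes and targets rose. Hif1a had 3434, 2684 and 2422.5 in the Hnrnpk arm, 2727, 2277.5 and 2064 in the lincRNA-p21 arm, and 2806, 2407.5 and 2386.5 in the luciferase arm, lower at each later day in every arm. The difference was -0.28 from day 6 to day 9 (SE 0.09, limma adjusted p = 0.0449) and -0.38 from day 6 to day 12 (SE 0.09, limma adjusted p = 0.0103). The earlier call was lost without any library of day 9, any lincRNA-p21 library or the Hnrnpk library of day 6, and the longer one without the lincRNA-p21 library of day 12. HIF-1 is set mainly by the stability of the protein, which these data do not measure.

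Of the other 9 members of this role, 7 rose from day 6 to day 9. The largest differences were 1.83 for Bnip3, a mitophagy receptor, and 1.75 for Egln3, the prolyl hydroxylase most strongly induced by low oxygen. Ankrd37, a hypoxia-induced ankyrin protein, rose by 1.19, and Vegfa, the angiogenic growth factor, by 1.05. The collagen prolyl hydroxylase subunits P4ha1 and P4ha2 rose by 0.83 and 0.66, and the disulphide-forming oxidase Ero1l by 0.64. P4ha1 was also called from day 9 to day 12 (0.76, SE 0.10, limma adjusted p = 0.021), at 2323, 4063.5 and 7256.5 in the Hnrnpk arm, 2883, 4856 and 8162.5 in the lincRNA-p21 arm, and 2923, 5650.5 and 9173 in the luciferase arm. Its day 12 libraries all lay above those of day 9, and the call for that step was kept without the luciferase or the Hnrnpk library of day 6 and lost without any other library. Adm, which encodes the vasodilator peptide adrenomedullin, had no common direction over the arms, with 196, 105 and 153 in the Hnrnpk arm, 163, 122.5 and 168.5 in the lincRNA-p21 arm, and 97, 120 and 174 in the luciferase arm. It was highest on day 6 in the Hnrnpk arm and on day 12 in the other arms, and no difference between days passed the test.

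Of the 25 calls from day 6 to day 9, the rises of Aldoa, Pfkfb4, Eno2 and Ero1l were lost without the Hnrnpk or the lincRNA-p21 library of day 9. Those of Pfkfb4, Eno2 and Ero1l were also lost without the luciferase library of day 9, those of Aldoa, Eno2 and Ero1l without the lincRNA-p21 library of day 6, and those of Eno2 and Ero1l without the luciferase library of day 6. Ldha, Slc16a1 and Hif1a lost their calls without several libraries, given with their values, and the other 18 calls held without any 1 library.

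**Figure D2:**
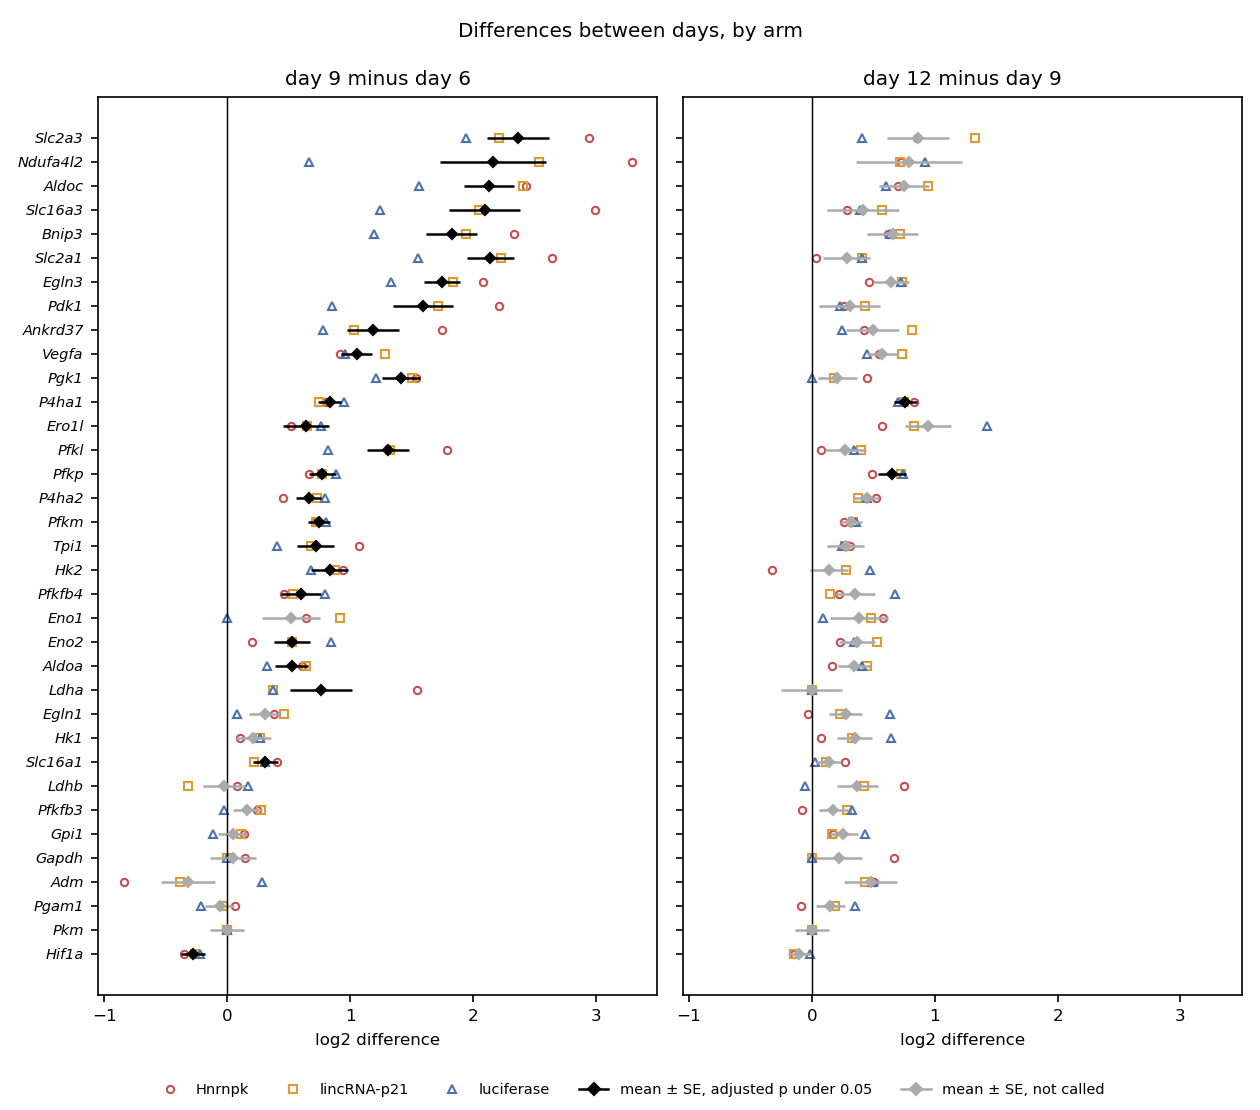
Log2 differences of the 35 members from day 6 to day 9 (left) and from day 9 to day 12 (right), ordered by the difference from day 6 to day 12. Open symbols are the 3 arms, and diamonds with bars are the mean difference ± SE, black where the adjusted p is under 0.05; the left panel has 25 black diamonds and the right panel 2.

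The promoters of 5 members that rose with time are shown because they carry the letters that HIF-1 is known to bind. The windows run from 250 bases before to 50 after the start site and were taken from RefSeq on GRCm38.p6, the patch release of the build the authors name as mm10. Capitals mark ACGTG or GCGTG on either strand (read as CACGT or CACGC on the other), and the palindrome CACGTG, which MYC proteins also bind, holds ACGTG on both strands. In order the windows lie at chr11:78322823-78323122 (plus strand), chr2:71872974-71873273 (plus strand), chr7:138909457-138909756 (minus strand), chr7:46845554-46845853 (plus strand) and chr10:59323046-59323345 (plus strand).
Aldoc: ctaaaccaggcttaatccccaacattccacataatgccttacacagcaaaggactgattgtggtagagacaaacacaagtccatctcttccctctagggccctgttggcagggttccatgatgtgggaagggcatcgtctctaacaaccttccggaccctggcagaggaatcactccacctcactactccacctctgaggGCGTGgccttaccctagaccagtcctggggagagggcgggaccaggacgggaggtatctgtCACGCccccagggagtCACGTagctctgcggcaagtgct
Pdk1: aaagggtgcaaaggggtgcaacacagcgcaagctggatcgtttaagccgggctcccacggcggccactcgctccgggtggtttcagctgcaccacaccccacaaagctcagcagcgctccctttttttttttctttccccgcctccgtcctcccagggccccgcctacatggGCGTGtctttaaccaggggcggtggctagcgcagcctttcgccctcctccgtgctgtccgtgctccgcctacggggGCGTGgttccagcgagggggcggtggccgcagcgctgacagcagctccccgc
Bnip3: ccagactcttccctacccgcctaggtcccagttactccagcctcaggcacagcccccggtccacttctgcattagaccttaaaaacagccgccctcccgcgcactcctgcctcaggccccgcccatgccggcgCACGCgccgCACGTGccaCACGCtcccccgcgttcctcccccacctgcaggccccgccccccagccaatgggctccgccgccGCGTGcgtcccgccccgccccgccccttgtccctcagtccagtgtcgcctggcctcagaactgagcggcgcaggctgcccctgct
Ldha: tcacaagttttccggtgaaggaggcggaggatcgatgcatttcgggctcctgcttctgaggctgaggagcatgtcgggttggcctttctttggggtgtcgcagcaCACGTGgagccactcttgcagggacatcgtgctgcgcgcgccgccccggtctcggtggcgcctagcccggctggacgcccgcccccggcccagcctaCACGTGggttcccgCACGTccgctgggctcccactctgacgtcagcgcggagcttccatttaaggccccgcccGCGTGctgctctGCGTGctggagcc
P4ha1: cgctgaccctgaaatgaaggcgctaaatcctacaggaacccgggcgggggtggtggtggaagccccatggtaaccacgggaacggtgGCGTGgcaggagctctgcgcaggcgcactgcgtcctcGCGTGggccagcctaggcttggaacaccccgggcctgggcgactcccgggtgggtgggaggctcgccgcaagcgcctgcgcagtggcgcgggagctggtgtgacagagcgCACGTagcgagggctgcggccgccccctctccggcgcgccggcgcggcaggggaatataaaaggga

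Windows were found for 33 of the 35 members, by symbol or, for Ero1l, by its synonym, and Ndufa4l2 and Slc2a3 had none. In the window nearest the annotated start, 26 of 33 members (78.8%) held at least 1 of the 5-letter strings and 5 (15.2%) held CACGTG, among them Ldha with 2 and Bnip3 with 1. Of all 32851 windows of 300 bases, 43.8% held a 5-letter string and 7.15% CACGTG. The members' windows were richer in CG, with a median of 21 CG pairs and 65% G or C, against 7 pairs and 52.7% over all windows. Among all windows with at least 21 CG pairs 74% held a string, and of the 18 members' windows that rich 16 did. The nearest windows of Vegfa, Aldoa, Tpi1 and Eno2, which also rose from day 6 to day 9, held no string. Those of Pgam1 and Gapdh, which were not called between days, held 3 each. A match describes letters and is not a site of binding.

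The Hnrnpk arm was set against the luciferase arm within each day. In the Hnrnpk arm 7 of 35 members were lower and 1 was higher (limma, adjusted p under 0.05). Together 22.9% of the members were called, where 12.5% of all tested genes were called in either direction, 5.58% higher and 6.94% lower. The median difference of the members was -0.20 on the log2 scale, against 0.00 over all genes, and 25 members had a negative and 9 a positive difference. The 7 lower members came from hypoxia targets (Egln3, Vegfa and P4ha1), flux switches (Ndufa4l2, Pdk1 and Pfkfb3) and upper glycolysis (Aldoc), and the higher one was the transporter Slc2a3. No member of lower glycolysis or of the lactate group was called. Among these, Pkm could show no difference on the deposited scale, and Gapdh and Ldha took few distinct values. The p-values rest on how far an arm's difference varies over the 3 days, since the replicates were merged before deposition.

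**Figure D3:**
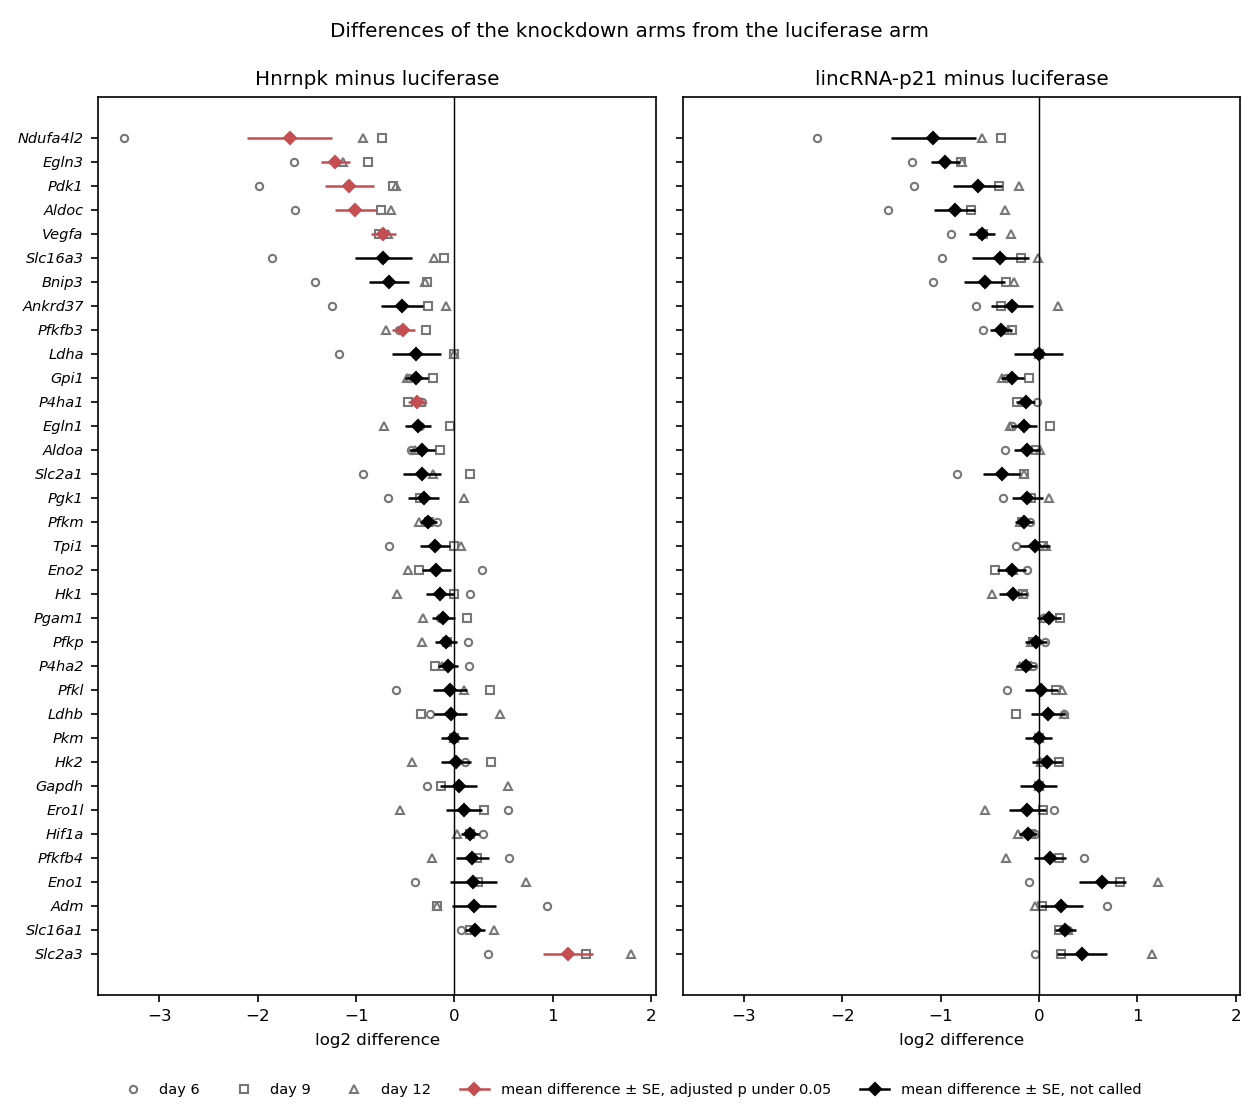
Log2 differences of the 35 members between the Hnrnpk and luciferase arms (left) and between the lincRNA-p21 and luciferase arms (right), in the order of the left panel. Open symbols are the differences within day 6, 9 and 12, and diamonds with bars the mean ± SE, red where the adjusted p is under 0.05; the left panel has 8 red diamonds and the right panel 0, and both panels use the same luciferase libraries.

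Egln3 (ENSMUSG00000035105, chr12:54178981-54203860 on GRCm38, minus strand) was the member whose call held without any 1 of the 9 libraries. Its signal was 1433.5, 6111 and 8447 on days 6, 9 and 12 in the Hnrnpk arm, 1813, 6498.5 and 10809 in the lincRNA-p21 arm, and 4457.5, 11223 and 18590 in the luciferase arm. On every day the luciferase library was the highest of the 3, although the arms overlap across days. In the Hnrnpk arm Egln3 was 2.32-fold lower than in the luciferase arm (-1.21 on the log2 scale, SE 0.15, limma adjusted p = 0.003685), and the call was lost when day 9 was left out of all arms. Egln1, the main oxygen sensor among the hydroxylases, had 1407, 1838.5 and 1797 in the Hnrnpk libraries, against 1799, 1898.5 and 2951.5 in those of luciferase, a difference of -0.37 that did not pass (limma adjusted p = 0.104).

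Ndufa4l2 (chr10:127514967-127517154, plus strand) had the largest difference of the 35 members. Its signal was 111, 1177 and 1949 in the Hnrnpk arm, 250.5, 1504.5 and 2486.5 in the lincRNA-p21 arm, and 1234, 1963.5 and 3731 in the luciferase arm. The Hnrnpk library was the lowest of the arms on each day, by 3.36 on the log2 scale on day 6, 0.73 on day 9 and 0.93 on day 12 from the luciferase library. The mean difference was -1.68 (SE 0.43, limma adjusted p = 0.0391), and its call was kept without the luciferase library of day 6 or of day 12 and lost without any other library and with no intensity trend (limma adjusted p = 0.051).

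Pdk1 (chr2:71873224-71903858, plus strand) stood at 949.5, 4445 and 5331.5 in the Hnrnpk arm, 1571.5, 5172 and 6992 in the lincRNA-p21 arm, and 3791, 6852.5 and 8050 in the luciferase arm. It was 2.10-fold lower in the Hnrnpk arm than in the luciferase arm (-1.07, SE 0.25, limma adjusted p = 0.0263). Aldoc, with the values given above, was 2.01-fold lower (-1.01, SE 0.21, limma adjusted p = 0.0172). In both genes the gap to the luciferase arm was widest on day 6, at -1.99 for Pdk1 and -1.62 for Aldoc, and between -0.59 and -0.75 on the later days.

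Vegfa (chr17:46016993-46032369, minus strand) had 1252.5, 2375 and 3465 in the Hnrnpk arm, 1118.5, 2736 and 4546.5 in the lincRNA-p21 arm, and 2082, 4052 and 5531 in the luciferase arm. Its difference between the Hnrnpk and luciferase arms was nearly the same on each day, -0.73, -0.77 and -0.67, with a mean of -0.72 (SE 0.13, limma adjusted p = 0.0106). Pfkfb3 had 972.5, 1153.5 and 1090 in the Hnrnpk arm, 966.5, 1171 and 1428.5 in the lincRNA-p21 arm, and 1440.5, 1417 and 1778 in the luciferase arm. Every Hnrnpk library of Pfkfb3 lay below every luciferase library (-0.52, SE 0.12, limma adjusted p = 0.0233). P4ha1, with the values given above, had the smallest called difference (-0.38, SE 0.10, limma adjusted p = 0.0349).

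Slc2a3 (chr6:122727809-122801640, minus strand) went the other way. It was 2.23-fold higher in the Hnrnpk arm than in the luciferase arm (1.16, SE 0.25, limma adjusted p = 0.0222), by 0.34 on day 6, 1.34 on day 9 and 1.79 on day 12. The other transporter gene, Slc2a1, was at -0.93, 0.16 and -0.21 on these days and was not called (-0.33, limma adjusted p = 0.294). GLUT3 is the transporter of pluripotent cells as well as of neurons. In the Hnrnpk arm 6 of 10 pluripotent, 5 of 6 epithelial and 5 of 5 keratinocyte markers were higher than in the luciferase arm, and 0 of 10 fibroblast markers were called. Of all tested genes 5.58% were called higher and 6.94% lower. The summed signal over the 3 days ran from 619.5 to 10553 for the pluripotent markers in the Hnrnpk arm, against 433.5 to 1387.5 in the luciferase arm. For the epithelial markers it was 3811.5 to 32094 against 3259 to 14325.5, for the keratinocyte markers 2095.5 to 11697 against 1043.5 to 4305, and for the fibroblast markers 112627.5 to 216619 against 173434 to 189379.5. The part of these cell types in the difference of Slc2a3 or of the lower members was not tested.

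Members that fell short of the test included some of the largest gaps of day 6. The differences between the Hnrnpk and luciferase arms were -0.72 for Slc16a3 (limma adjusted p = 0.141), -0.67 for Bnip3 (limma adjusted p = 0.0699), -0.54 for Ankrd37 (limma adjusted p = 0.135) and -0.39 for Ldha (limma adjusted p = 0.339). Bnip3 had 938, 4781.5 and 7375 in the Hnrnpk libraries, against 2527.5, 5813.5 and 9065.5 in those of luciferase, and Ankrd37 had 130.5, 463 and 624 against 323, 560.5 and 665. Gpi1 had 19533, 21447.5 and 24177 in the Hnrnpk libraries, against 26992, 24950 and 33715 in those of luciferase, with no overlap and no call (-0.39, limma adjusted p = 0.0637). Hif1a differed by 0.16 (limma adjusted p = 0.311). The members not yet named for this comparison (Hk1, Hk2, Pfkl, Pfkm, Pfkp, Aldoa, Tpi1, Gapdh, Pgk1, Pgam1, Eno1, Eno2, Pkm, Ldhb, Slc16a1, Pfkfb4, Adm, P4ha2 and Ero1l) ran from -0.33 for Aldoa to 0.21 for Slc16a1, and none was called.

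Within a day there is no replicate and no test, so members at least 2-fold apart were counted. On day 6, 8 members were lower in the Hnrnpk than in the luciferase library and 0 higher, where 6.61% of all genes differed that much in either direction. The 8 were Aldoc, Ldha, Slc16a3, Pdk1, Ndufa4l2, Bnip3, Egln3 and Ankrd37. On day 9, 1 member differed that much, Slc2a3, which was higher (3.87% of all genes), and on day 12 there were 2, Slc2a3 higher and Egln3 lower (6.22% of all genes). By day 9 the exporter Slc16a3 was at 6487 in the Hnrnpk library against 6968.5 in the luciferase library, after 806 against 2937.5 on day 6.

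The number of Hnrnpk calls depended on single libraries. Of the 8 members, 1 stayed called without the luciferase library of day 9 or without the Hnrnpk library of day 9, 2 without the Hnrnpk library of day 12, and 5 without the Hnrnpk library of day 6, the luciferase library of day 12 or the lincRNA-p21 library of day 9. Without the luciferase library of day 6 all 8 were kept, and 6 were kept without the lincRNA-p21 library of day 6 or of day 12. The 9 fits kept the call of Egln3 9 times, of Vegfa 7, of Aldoc 6, of Slc2a3 5, of Pdk1 and Pfkfb3 4, and of Ndufa4l2 and P4ha1 2 times. Without day 6 in all arms 10 members were called, the same 8 among them, and without day 9 none was. The direction of all 8 was the same in every alternative.

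**Figure D4:**
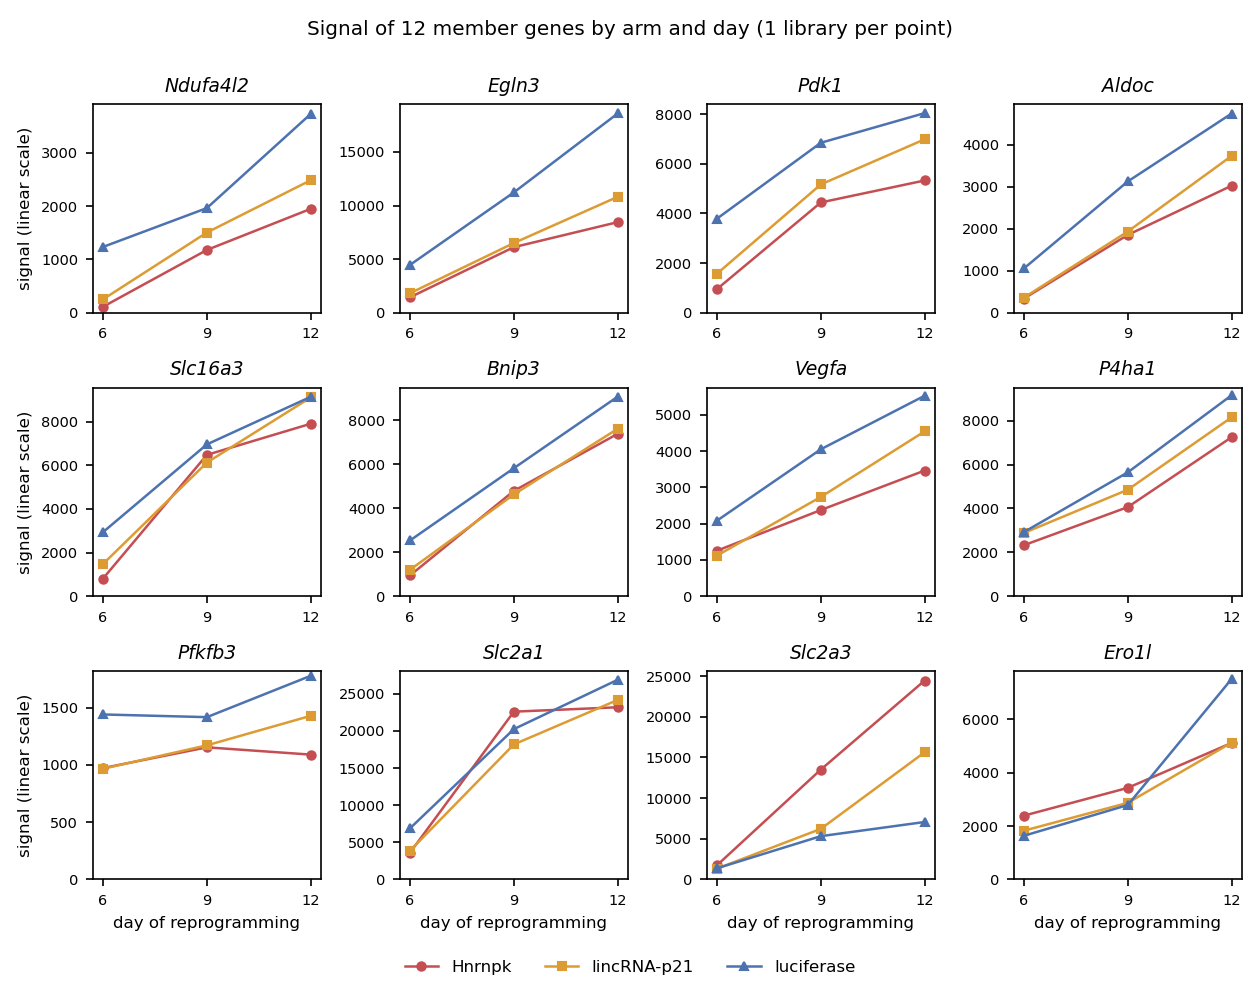
Signal of 12 members (linear scale from 0) on days 6, 9 and 12 in the Hnrnpk (red circles), lincRNA-p21 (orange squares) and luciferase (blue triangles) arms, with 1 library per point. For Ndufa4l2, Egln3, Pdk1, Aldoc and Vegfa the luciferase line is the highest on every day, for Slc2a3 the Hnrnpk line is, and for Ero1l the lines cross, with the luciferase arm lowest on day 6 (1638) and highest on day 12 (7511).

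No member was called between the lincRNA-p21 and luciferase arms by limma, where 1 of all tested genes was (0.00797%), while 10 members and 1730 of all genes had an unadjusted p under 0.05. The median difference of the members was -0.12, against 0.02 over all genes. Egln3 came nearest, at -0.95 (SE 0.15, limma adjusted p = 0.0728), then Vegfa at -0.58 (limma adjusted p = 0.113) and Aldoc at -0.86 (limma adjusted p = 0.135). The other sizeable differences were -1.07 for Ndufa4l2 (limma adjusted p = 0.324), -0.62 for Pdk1 (limma adjusted p = 0.32) and 0.64 for Eno1 (limma adjusted p = 0.292). Slc2a3 was at 0.44 (limma adjusted p = 0.486), and its lincRNA-p21 values were close to those of the luciferase arm on days 6 and 9 and above them on day 12. Egln3 was called without the luciferase library of day 6 (-0.77, limma adjusted p = 0.0399) or the Hnrnpk library of day 6 (-0.95, limma adjusted p = 0.0413). Missing the threshold does not show that the arms were alike. At least 2-fold apart on day 6 were 5 members, all lower in the lincRNA-p21 library (2.43% of all genes): Aldoc, Pdk1, Ndufa4l2, Bnip3 and Egln3. On day 9 there were 0 (1.08% of all genes), and on day 12 Slc2a3 and Eno1 were higher (1.48% of all genes). In the lincRNA-p21 arm the pluripotent markers summed to 446 to 6581 over the days, the epithelial to 2033.5 to 13992 and the fibroblast to 171482 to 248471.5, with 0 of these markers called against luciferase, and their part was not tested. The luciferase libraries serve both knockdown comparisons, so the 2 sets of differences are not independent.

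Set against each other, the Hnrnpk and lincRNA-p21 arms gave 0 called members of 35 by limma (3.26% of all tested genes were called), 3 with an unadjusted p under 0.05 (2381 of all 12541 genes), and a median difference of -0.12. The range ran from -0.60 for Ndufa4l2 to 0.72 for Slc2a3 (limma adjusted p = 0.173). This difference is between the 6 libraries of those arms, but its SE and p draw on the spread of all 9, and 1 member was called when only the 6 libraries were fitted.

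A second model asked whether the gap between the Hnrnpk and luciferase arms changed over time, as a slope in log2 units per 3 days. In it 3 of 35 members had a called upward slope and 1 a downward slope (limma, 5.06% of all genes upward and 4.3% downward), and 19 members and 3814 of all 12541 genes had an unadjusted p under 0.05. The slope of Slc2a3 was 0.72 (SE 0.16, limma adjusted p = 0.0353), as its excess in the Hnrnpk arm widened. Those of Pdk1 (0.70, SE 0.17, limma adjusted p = 0.0441) and Aldoc (0.49, SE 0.12, limma adjusted p = 0.0488) were upward, as their deficit of day 6 narrowed. Ero1l sloped downward (-0.55, SE 0.12, limma adjusted p = 0.0319), with 2391.5, 3432 and 5116 in the Hnrnpk arm, 1828, 2871 and 5127 in the lincRNA-p21 arm, and 1638, 2789 and 7511 in the luciferase arm. It was higher in the Hnrnpk than in the luciferase library on days 6 and 9 and lower on day 12. Just short of the threshold were Ndufa4l2 (1.21, limma adjusted p = 0.0537), Slc16a3 (0.82, limma adjusted p = 0.0556) and Bnip3 (0.56, limma adjusted p = 0.0591). With 2 residual degrees of freedom these slopes were fragile: the count was 0 without the luciferase or the Hnrnpk library of day 6 or any 1 lincRNA-p21 library, 15 without the luciferase library of day 9, 17 without the Hnrnpk library of day 9 and 11 without the Hnrnpk library of day 12. Slopes of the lincRNA-p21 arm gave 0 called members (0% of all genes), and 10 members and 2107 of all genes had an unadjusted p under 0.05. Between 3 and 7 members were called there without the luciferase library of day 9 (3) or day 12 (4) or the Hnrnpk library of day 6 (7), day 9 (6) or day 12 (6).

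Neighbouring pathways were read from lists chosen with earlier results of these data known. Of 36 tested genes next to glycolysis and pyruvate, 2 were higher and 4 lower in the Hnrnpk than in the luciferase arm (limma), with a median of 0.00; all counts of this comparison stand beside the 5.58% higher and 6.94% lower of all genes. Pcx, pyruvate carboxylase, was higher (1.05, SE 0.14), and Txnip, which curbs glucose uptake, and Pdk2, a relative of Pdk1, were lower (-0.91, SE 0.17, and -0.86, SE 0.14). None of 10 pentose phosphate genes was called by limma (the largest difference was 0.39, for Taldo1) and none of 20 genes of the tricarboxylic acid cycle (0.29, for Idh1). Of 10 serine and one-carbon genes 2 were higher, Mthfd2 (0.82) and Psph (0.63).

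Further hypoxia targets did not share a direction in the Hnrnpk arm. Of 40 tested, 7 were higher and 4 lower than in the luciferase arm (5.58% and 6.94% of all genes), with a median of -0.05. Hmox1, heme oxygenase, was higher by 1.21 and the collagen cross-linker Lox by 1.15, while Selenbp1, a selenium-binding protein, was at -1.03 on the log2 scale. Among 14 genes that sense oxygen or form HIF, Epas1, which encodes the HIF-2 alpha subunit, was higher (0.67, limma adjusted p = 0.0264) and Arnt, the common partner of these subunits, lower (-0.44, limma adjusted p = 0.0413). Arnt had 2840, 3577.5 and 2952.5 in the Hnrnpk libraries, against 3911.5, 4153 and 4597.5 in those of luciferase, without overlap. Of 15 regulators of growth and metabolism 3 were higher and 1 lower. The higher ones were Lin28a (2.82), Mycn (2.60) and Esrrb (1.92). Lin28a and Esrrb are also among the pluripotent markers counted above. Myc was lower, with 27901, 17713 and 16340 in the Hnrnpk libraries, against 56808.5, 26978 and 32439 in those of luciferase (-0.87, limma adjusted p = 0.0148). Reads from the c-Myc plasmid and from the Myc gene cannot be told apart in this table.

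From day 6 to day 12 the further hypoxia targets rose in 19 of 40 and fell in 3, with a median of 0.47, led by Ndrg1 (2.27, SE 0.26), a stress-induced differentiation gene, and Ak4 (1.64, SE 0.11), a mitochondrial adenylate kinase. The neighbours of glycolysis gave 13 higher and 3 lower of 36, led by the glycogen phosphorylase Pygl (2.88, SE 0.16) and by Emb (2.38, SE 0.28), a partner protein of lactate transporters. Of the tricarboxylic acid cycle 6 of 20 rose and 2 fell, with Fh1, fumarase, at 0.75 and Ogdh, a subunit of oxoglutarate dehydrogenase, at -0.70. Pentose phosphate genes gave 2 higher and 1 lower of 10, serine and one-carbon genes 2 higher of 10, and oxygen sensing genes 4 higher and 3 lower of 14. Hif3a, for a further HIF alpha subunit, rose by 2.55, and the coactivator gene Crebbp fell by 1.21. Growth regulators gave 6 higher and 5 lower of 15. Beside these lists the 35 members had 28 higher and 1 lower, with all lists read against 22.3% of all genes called higher and 27% lower.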

How the data were processed

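RNA from mouse embryonic fibroblasts under reprogramming was sequenced on an Illumina instrument, per the labels' protocols, as 9 libraries (3 hairpin arms on 3 days). The deposited signal is 1 value per gene and library, normalized by the authors and labelled as merged replicates. RSEM 1.2.12, Bowtie 1.0.1 and mm10 are named in the submitters' processing notes without a stated role, and how values were scaled and replicates merged is not stated there. The read depth is therefore unknown, and no counting interval is given.

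Differences were fitted in R 4.3.3 with limma 3.58.1 on log2(signal + 10), which understates changes of low genes, over 12541 of 12550 genes with a mean of at least 20 (9 fell below). The model had terms for arm and day with an intensity trend, and p-values were adjusted by Benjamini and Hochberg over all genes, called under 0.05. A further model had a slope per knockdown arm. With day as the block, p-values rest on how arm differences vary over days, or day differences over arms, and not on replicates within a day. Limma also draws the spread of each gene toward that of genes with a similar signal. All members are accounted for by name; values in every library are given for members called between arms or in a slope and for the 4 largest day differences in each direction, and from the neighbour lists up to 3 of the largest differences are named. Selenbp1, Lin28a, Mycn, Esrrb and Myc were named after their values were seen. The members and lists were chosen with earlier results of these data known. Gene coordinates are from GENCODE M21 and promoter windows from RefSeq. Other pseudocounts, filters, scalings, designs and the omission of each library, day and arm were tried.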

Additional observations from a re-analysis of the deposited data

Results flagged for a closer look

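For 4 members the gap between the Hnrnpk and luciferase arms changed with time by a test of the slope itself, in log2 units per 3 days. They were 11.4% of the 35 members, where 9.35% of all tested genes had a called slope in either direction. The slopes were 0.725 for Slc2a3, 0.696 for Pdk1, 0.487 for Aldoc and -0.548 for Ero1l (limma, adjusted p of 0.0353, 0.0441, 0.0488 and 0.0319). The within-day differences behind them rest on 1 library per arm and day. All 4 calls were lost with no intensity trend, and also without any 1 lincRNA-p21 library. The slopes of the lincRNA-p21 arm for these genes were 0.595, 0.531, 0.595 and -0.354 and were not called (limma adjusted p of 0.17, 0.204, 0.153 and 0.21), and the luciferase libraries are common to both.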

How the results depend on the processing

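Of 119 named differences 68 were called; 36 of these held in every alternative run and 32 were lost in some. Those that held were 22 of 29 from day 6 to day 12 and 14 of 25 from day 6 to day 9, and 0 of 8 between the Hnrnpk and luciferase arms. With the design without a replicate block (day, or arm, left out) 0 Hnrnpk members and 0 members from day 9 to day 12 were called, since the differences of the factor left out then enter the spread. No other pairing was possible because replicates were merged. The 8 Hnrnpk calls became 0 without day 9, 3 without day 12 and 2 with only the 6 libraries compared. They became 1 to 8 when 1 library was left out. Other pseudocounts, filters and scalings left 8, and the fit with no trend called 8, 7 of them the same. The deposited columns already had nearly equal totals and medians (816.5 to 827), so the scalings could change little. Leaving out the filter added only 9 genes. The lincRNA-p21 count of 0 became 2 without day 6 and 0 to 1 without 1 library, and the Hnrnpk against lincRNA-p21 count of 0 became 1 with only the 6 libraries and stayed 0 without 1 library. From day 6 to day 9 the 25 became 14 without the lincRNA-p21 arm and 18 to 25 without 1 library; from day 6 to day 12 the 29 became 25 to 29. The 2 calls from day 9 to day 12 became 1 with 1 added, with a mean of at least 100 or with no trend, 0 without the Hnrnpk, lincRNA-p21 or luciferase arm, 12 with only the 6 libraries and 0 to 10 without 1 library. Slope counts were 0 with no trend and 0 to 17 without 1 library for Hnrnpk, and 0 to 7 for lincRNA-p21.

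Signs reversed for 5 uncalled differences, given with their range over fits without 1 library. Eno1, Hnrnpk minus luciferase, ran from -0.0864 (without luciferase day 12) to 0.523 and was -0.0795 without day 12. Slc16a3, lincRNA-p21 minus luciferase, ran from -0.618 to 0.0393 (without luciferase day 6). Pgam1, day 9 minus day 6, ran from -0.153 to 0.0263 (without luciferase day 9) and was 0.0135 without the luciferase arm. Ldhb, day 9 minus day 6, ran from -0.18 to 0.111 (without lincRNA-p21 day 6), with 0.0632 without lincRNA-p21 day 9, 0.0429 without Hnrnpk day 9 and 0.124 without the lincRNA-p21 arm. Ndufa4l2, change per 3 days of Hnrnpk minus luciferase, ran from -0.0116 (without luciferase day 6) to 2.44. The cause was not tested. With unknown depth and merged replicates, precision within a library cannot be stated.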
